A study of Rattus norvegicus with 176 samples.

Results

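The livers described here came from F344 rats, an inbred laboratory strain, that received clofibric acid (CA, the arm labelled Clo) without a break, and they were sampled at 6 times labelled 5j, 1m, 3m, 9m, 12m and 18m. The group comprised 29 of the 176 arrays in the study: every liver section of the CA arm without a section tag at those times, 5 rats per time and 4 at 12m. The section of rat 4137 at 12m was left out by the rule that chose the samples. Comparison arms were 30 livers labelled Ctrl (controls) of the same 6 times and, at the first 5 times, 25 livers labelled DEN-Clo (here DEN-CA), from rats that had diethylnitrosamine (DEN), a liver carcinogen, besides CA. The titles name a dose of 5000 ppm CA, for control rats too, so treatment was read from the group label. Several titles spell m as month, whereas j, the suffix B of some titles and the section tag TU are not explained, and age, sex, diet and vehicle are not given in the sources used here. Every rat has a number of its own, so each array was a separate animal and no rat was followed over time. In whole liver, fewer cells of a type and less RNA per cell cannot be told apart.

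Clofibric acid is a fibrate, a lipid-lowering drug that activates the nuclear receptor PPARalpha. In rodent liver, PPARalpha switches on genes that carry fatty acids into mitochondria and peroxisomes and break them down there, and peroxisomes multiply. Long exposure of rats to such compounds is known to lead to liver tumours. The question put to the data was which genes drifted, declined or built up while the drug was continued.

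Values are MAS5 intensities scaled to one median per array (scaled intensity), and a trend is the fitted change in log2 units from the first to the last time, from a line through the ordered times. The medians of the CA arrays before scaling ran from 25.35 to 170.8, and they were not spread evenly over the times: 25.4 to 96.4 at 3m, 112 to 129 at 9m and 78 to 171 at 18m. Log2 values of 2 arrays of one CA time correlated at 0.935 or more, with a median of 0.971. Albumin (Alb), the defining hepatocyte product, was bright on all CA arrays, from 10500 to 51400. A second section with the tag TU came from 1 of the 4 CA rats at 12m and 4 of the 5 at 18m. In the DEN-CA arm it came from 3 of the 5 rats at 9m and 3 of the 5 at 12m. The suffix B was also uneven over the times in every arm. From 5j to 18m it was on 2, 1, 1, 1, 0 and 0 of the CA arrays. Of the control arrays 4, 2, 2, 1, 0 and 0 carried it. At the first 5 times 2, 4, 4, 4 and 0 of the DEN-CA arrays did.

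**Figure D1:**
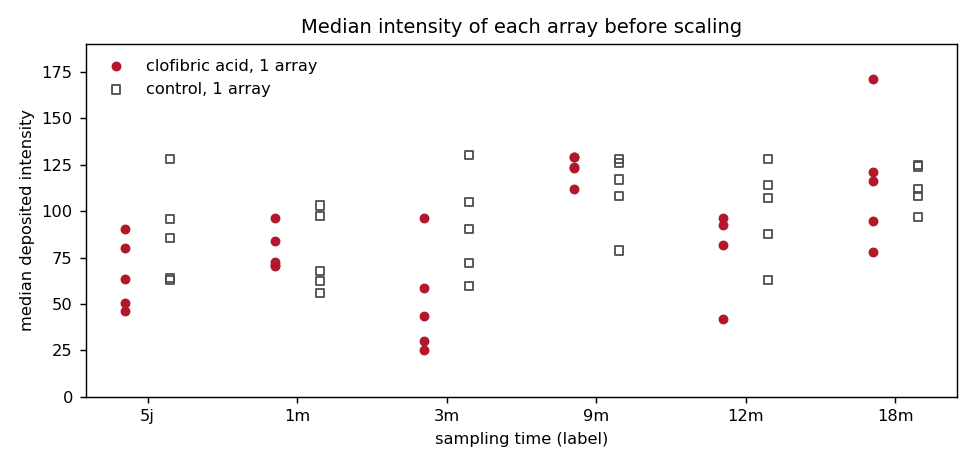
Median deposited intensity of each array before scaling (vertical axis, intensity units) at the 6 sampling times (horizontal axis). Filled circles are CA rats and open squares control rats, 1 point per array. The 5 CA arrays of 9m lie between 112 and 129 and above all 5 CA arrays of 3m, which lie between 25.4 and 96.4.

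Of 8166 genes tested, 815 had a called trend over the 6 times under CA at an adjusted p below 0.05 (limma with Benjamini-Hochberg adjustment), which is 9.98% of them. Genes that ended higher numbered 499 (6.11%) and genes that ended lower 316 (3.87%). The median trend of all genes was 0.03. Without scaling, 5066 genes rose, 14 fell and that median was 0.67, so all directions here are relative to the median gene. Set directly against 5j, 18m had 523 changed genes (6.4%), 277 higher (3.39%) and 246 lower (3.01%). In probe sets these were 1139 calls, and leaving out single rats moved the number between 793 and 1289. With the log2 median of each array added to the fit as a covariate, 295 probe sets were called, and all 1139 kept their direction. Without the 5 rats that also had a TU section, which leaves 1 rat at 18m, 165 were called. The part of array brightness and of these rats in the counts was not tested beyond those values.

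Genes of fat oxidation fell. In the list of mitochondrial fatty acid oxidation, 13 of 20 tested genes fell and 0 rose, with a median trend of -0.51. In controls 1 of the 20 fell and the median was -0.17, where 12.2% of all tested genes were called, 5.87% rising and 6.31% falling. The fall under CA differed from the trend in controls for 3 of the 20 genes, against 2.25% of all genes (1.11% higher and 1.14% lower under CA). The brightness covariate left 7 of the 20 falling, and 4 fell without the rats that had a TU section. In unscaled intensities the list turned upward (median 0.24) but lay below the 0.67 of all genes, as did the medians of the peroxisomal list (0.33) and of other PPARalpha targets (0.37) described next.

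Eci1, an enoyl-CoA isomerase of the mitochondrial pathway, had scaled intensities of 10700, 11100, 12200, 15800 and 17800 in the 5 CA rats of 5j. At 18m the 5 rats had 5890, 6830, 6920, 7400 and 7760. The 2 times did not overlap, and the mean went from 13500 ± 3120 to 6960 ± 709 (SD, n = 5 each). The trend of Eci1 was -1.02 ± 0.14 (SE; adjusted p = 7.5e-06, limma). Its only step between neighbouring times to pass the test was from 3m to 9m (-0.73 ± 0.16, adjusted p = 0.0072, limma), across the same pair of times between which array brightness differed most. Control livers averaged 4740 at 5j and 3420 at 18m, so that the CA mean was 2.85 times the control mean at first and 2.04 times at the end. Controls fell too (-0.48, adjusted p = 0.039, limma), and the difference between the arms was not called (-0.54 ± 0.23, adjusted p = 0.24).

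Acaa2, the thiolase that ends each round of mitochondrial beta-oxidation, fell by 0.83 (adjusted p = 3.5e-05, limma), and Decr1, a reductase for unsaturated fatty acids, fell by 0.72 (adjusted p = 0.00016). Both declined relative to controls, with differences of -0.61 (adjusted p = 0.038) and -0.68 (adjusted p = 0.019). The means of Acaa2 were 11500 ± 1540 at 5j and 6420 ± 704 at 18m, against 5970 and 5140 in controls. Slc25a20, the carrier that brings acylcarnitines into mitochondria, fell by 0.86 (adjusted p = 0.00034, limma), and its difference from controls missed the threshold (adjusted p = 0.14). The size of these falls depended on how arrays were brought to a common scale. After quantile normalization all 4 were still called, with trends of -0.53 for Eci1, -0.42 for Acaa2 and -0.42 for Decr1.

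Peroxisomal genes went the same way: 12 of 26 tested members of the list of peroxisomal beta-oxidation and biogenesis fell and 0 rose (median -0.42). In controls 6 fell and 1 rose (median -0.09), and the trend was lower than in controls for 5 of the 26. With the brightness covariate 11 fell, and 5 without the rats that had a TU section. Ech1, a dienoyl-CoA isomerase, had 8440, 9380, 11200, 11300 and 11900 at 5j and 4610, 4630, 4720, 5400 and 6810 at 18m. All of the early rats were above all of the late ones. The trend of Ech1 was -1.05 ± 0.15 (adjusted p = 1.6e-05, limma) and differed from that of controls by -0.90 (adjusted p = 0.0092). The ratio of the CA mean to the control mean went from 2.09 to 1.23.

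Ehhadh, the bifunctional enzyme of peroxisomal beta-oxidation and a classic fibrate marker, had 12500, 13700, 14300, 20800 and 21900 at 5j and 6390, 7400, 7470, 8720 and 8910 at 18m. It fell by 1.03 (SE 0.16, adjusted p = 7.9e-05, limma), a difference of -1.20 from the control trend (adjusted p = 0.012). Even so, every CA rat was above every control rat at all 6 times, and the ratio of the means was 6.10 at 5j and 3.03 at 18m. After quantile normalization the trend of Ehhadh was -0.50 and with the brightness covariate -0.74, and both were called. Pex11a, which drives peroxisome division, fell by 1.11 (adjusted p = 0.00011, limma), and Amacr, a racemase for branched-chain fatty acids, by 1.12 (adjusted p = 0.00033). Both fell in controls as well, by 0.77 and 0.70, with no difference called. Catalase (Cat), the enzyme that removes the hydrogen peroxide of peroxisomes, fell by 0.54 (adjusted p = 0.02, limma) and in controls by 0.53. Its call was lost after quantile normalization and with the brightness covariate, and without rat 4145 of 18m or rat 4117 or 4118 of 5j.

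**Figure D2:**
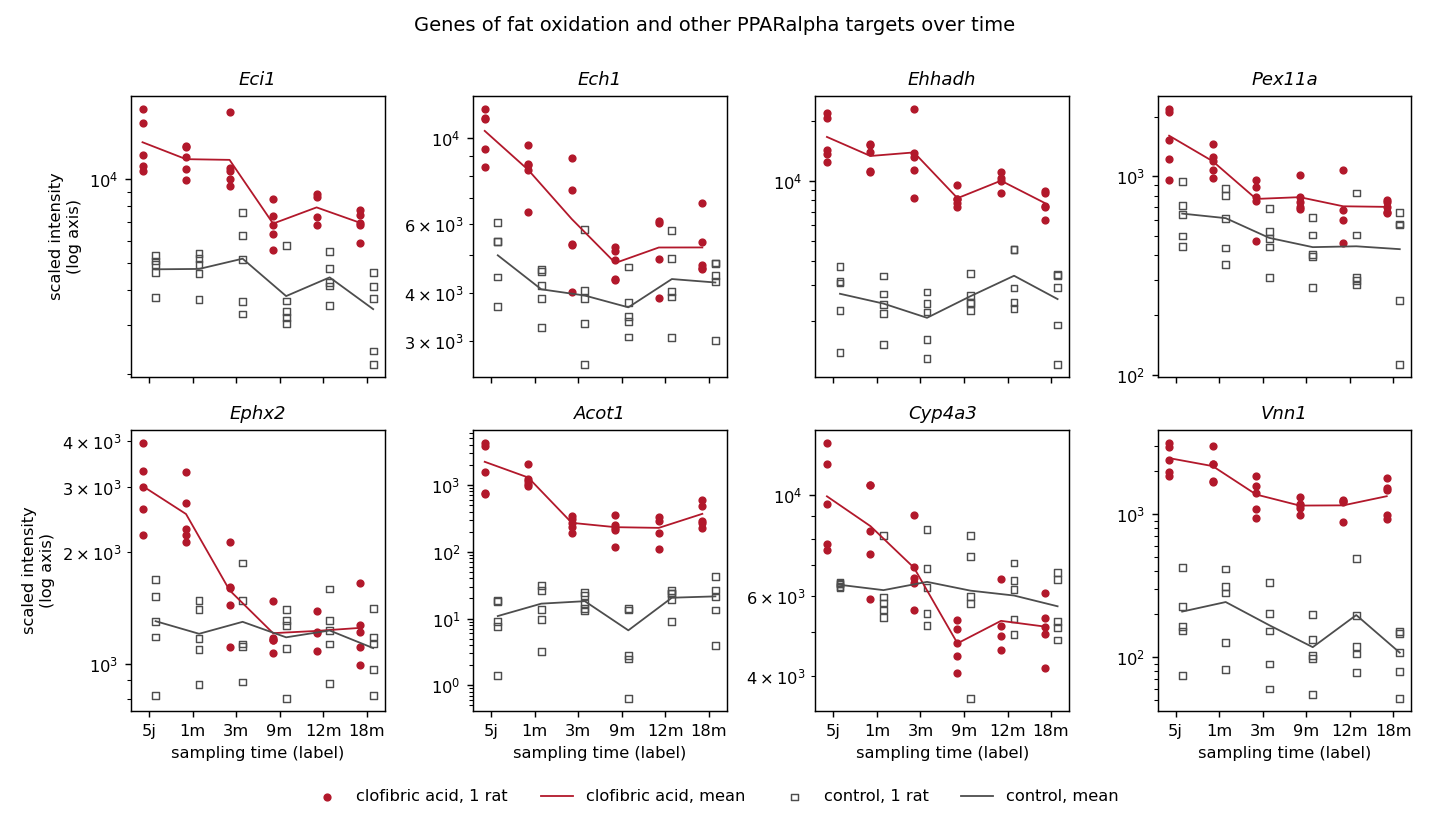
Scaled intensity (vertical axes, log scale, intensity units) of 8 genes of fat oxidation and other PPARalpha targets at the 6 sampling times (horizontal axes). Filled circles are single CA rats, open squares single control rats and lines the group means. Under CA all 8 genes are lower at 18m than at 5j without overlap, and Ephx2 and Cyp4a3 come to lie among the controls from 9m on, while Acot1, Ehhadh and Vnn1 stay above all controls.

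The third list, other PPARalpha targets, was mixed: 15 of 40 tested genes fell and 5 rose (Slc27a4, Aqp7, Acsl5, Fgf21 and Plin4), with a median of -0.33. In controls 2 fell and 6 rose (median -0.01). The trend was lower than in controls for 9 of the 40 and higher for 2. With the brightness covariate 9 fell and 4 rose, and without the rats that had a TU section 9 fell and 0 rose.

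Acot1, a cytosolic acyl-CoA thioesterase, had the deepest fall of the fat metabolism genes. Its 5j rats had 722, 759, 1590, 3790 and 4280, its 1m rats ran from 954 to 2100, and its 3m rats had 194, 239, 269, 310 and 346. The rats of 3m lay below all rats of the earlier times, and this step was called (-2.12 ± 0.37, adjusted p = 0.02, limma). Afterwards the means stayed between 228 and 370. The trend was -2.66 ± 0.32, a 0.159-fold change (adjusted p = 1.3e-06, limma), and differed from that of controls by -2.90 (adjusted p = 2.8e-07). Control rats had between 0.643 and 42.4 throughout, and all CA rats were above all controls at every time. Acot1 is one of a cluster of similar thioesterase genes, so its probe set may also register its relatives.

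Ephx2, the soluble epoxide hydrolase, illustrates a gene that came down to the level of untreated liver. The rats of 5j had 2220, 2610, 3000, 3320 and 3950 and those of 9m 1070, 1160, 1160, 1170 and 1480. At 18m the mean was 1250 ± 250, against 1100 in controls, and the 2 arms overlapped from 3m onwards. The trend of Ephx2 was -1.38 ± 0.14 (adjusted p = 6e-08, limma) and differed from controls by -1.22 (adjusted p = 0.00051). Cyp4a3, a fatty acid omega-hydroxylase, fell by 1.03 (adjusted p = 1.6e-05, limma), from a mean of 9930 ± 2400 to 5130 ± 698. Its controls averaged 6340 at 5j and 5680 at 18m, so the ratio of the means went from 1.57 to 0.903. The Cyp4a genes are close paralogs, and their probe sets may share signal.

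Fabp3, the heart-type fatty acid-binding protein, fell by 1.80 (SE 0.39, adjusted p = 0.0033, limma), with a difference of -2.06 from controls (adjusted p = 0.011). Its 5j rats were far apart, at 111, 174, 259, 1090 and 1220, and overlapped the 18m rats (136 to 339). Vnn1, a pantetheinase strongly induced by fibrates, fell by 1.04 (adjusted p = 0.00016, limma), from 2460 ± 581 to 1330 ± 372. Its controls went from 208 to 107, so the ratio of the means was 11.8 at 5j and 12.4 at 18m, and no difference between the trends was called (adjusted p = 0.79).

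Not every target had a called decline over the 6 times, and the called decline of Cyp4a1 depended on the processing. Hdc, which makes histamine, had a trend of -0.15 ± 0.27 (adjusted p = 0.78, limma), with CA means of 1270 ± 518 at 5j and 1010 ± 278 at 18m and control values between 10.7 and 124. Cpt1b, the muscle form of the carnitine palmitoyltransferase, had -0.39 ± 0.19 over the 6 times (adjusted p = 0.21). Over the first 5 times, however, Cpt1b fell by 0.75 (adjusted p = 0.044, limma), and in DEN-CA rats by 1.21 (adjusted p = 0.00073). Cyp4a1 fell by 0.71 (adjusted p = 0.0016, limma), a call lost after quantile normalization (-0.27, adjusted p = 0.053) and with the brightness covariate (-0.52, adjusted p = 0.064). For Hdc, Cpt1b and Cyp4a1 all CA rats were above all control rats at all 6 times. Fgf21, a fasting hormone made by liver and a PPARalpha target, rose by 1.60 (SE 0.39, adjusted p = 0.0084, limma). Its means were 255 ± 213 at 5j and 643 ± 290 at 18m with overlap between rats. The ratio of the CA mean to the control mean was 1.67 at 5j and 2.16 at 18m, and no difference in trend from controls was called. The call of Fgf21 was lost without the rats that had a TU section.

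The DEN-CA rats, other animals under the same drug, gave a separate reading of the first 5 times. Of them, 3 of 5 at 9m and 3 of 5 at 12m also had a TU section, and the part of these rats was not tested. In probe sets 1100 had a called trend in DEN-CA rats, 198 without arrays of the suffix B and 190 in unscaled intensities. In that arm 16 of 20 mitochondrial, 13 of 26 peroxisomal and 18 of 40 other PPARalpha genes fell, against 6.95% of all 8005 genes (10% called in either direction). Ephx2 fell there by 1.60 (adjusted p = 1.4e-10, limma), and the trends of Acot1 (-4.04, adjusted p = 3.8e-10), Ech1 (-1.12), Vnn1 (-1.53) and Eci1 (-0.82) were called as well. Over the same 5 times the CA arm alone had 238 called genes (2.91%), 120 rising (1.47%) and 118 falling (1.45%). Of its 116 falling genes tested in both arms, 95 also fell in DEN-CA rats, which is 81.9% of the CA list and 17.3% of the 550 falling genes of DEN-CA. Of the 120 rising ones 55 also rose, 45.8% of the CA list and 22.5% of the 244 of DEN-CA. No gene was called in opposite directions. The CA count over 5 times rested on single rats: in probe sets it was 314, and 200, 203 and 209 without rat 4139 or 4140 of 12m or rat 4117 of 5j.

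**Figure D3:**
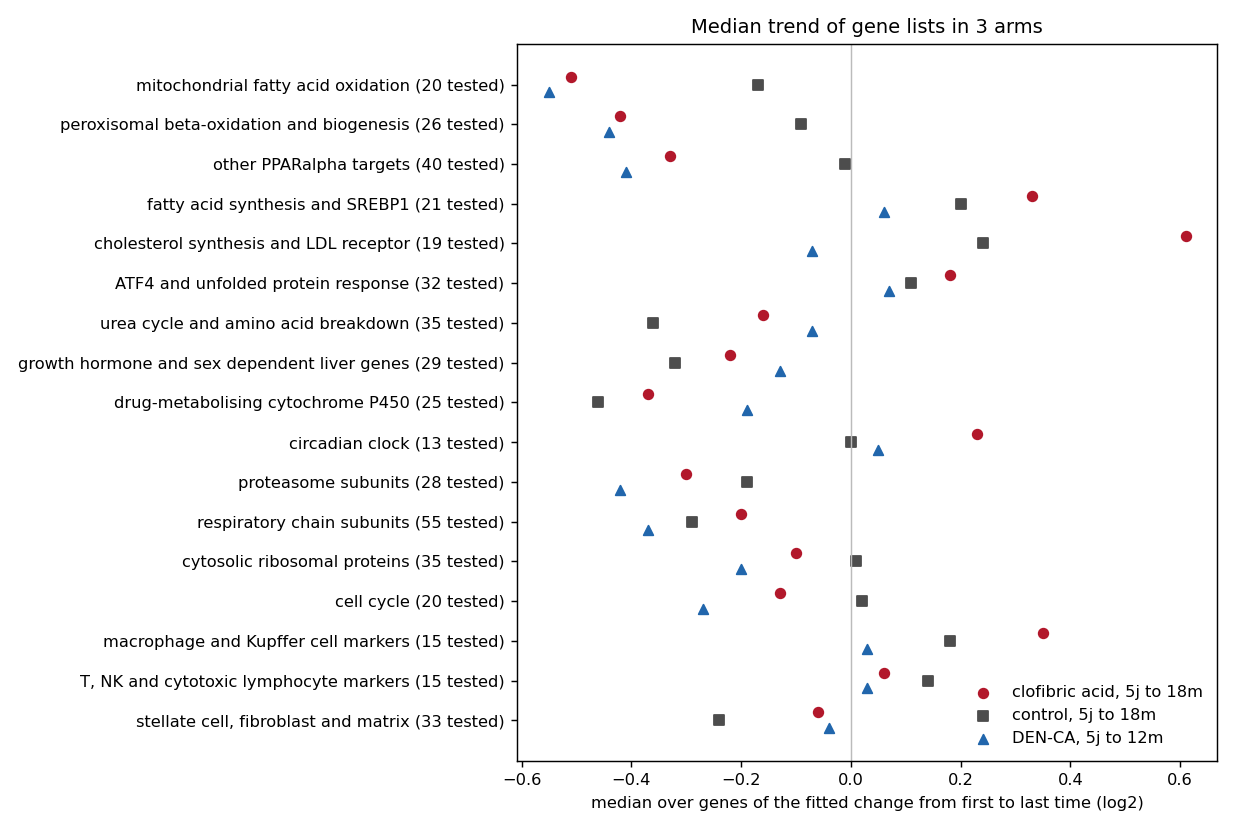
Median over the tested genes of each list of the fitted change from the first to the last time (horizontal axis, log2 units) for 17 gene lists (vertical axis, with the number of genes tested under CA). Circles are CA rats from 5j to 18m, squares controls from 5j to 18m and triangles DEN-CA rats from 5j to 12m. The 3 lists of fat oxidation and PPARalpha targets lie between -0.33 and -0.51 under CA and between -0.01 and -0.17 in controls, and cholesterol synthesis lies at 0.61 under CA.

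While oxidation genes declined, some genes of lipid synthesis built up. Scd2, a stearoyl-CoA desaturase that is normally scarce in adult liver, had the largest rise of the genes named here. Its 5j rats had 34.7, 48.0, 58.1, 60.9 and 121, and the 1m rats 435, 635, 636, 821 and 1150. The groups were apart, and the step was called (3.08 ± 0.24, adjusted p = 7.1e-10, limma). At 18m the rats had 1080, 1540, 1680, 1940 and 2100. The trend over all 6 times was 3.41 ± 0.21, a 10.6-fold rise (adjusted p = 2.1e-13, limma), and from 1m on it was still 1.02 ± 0.22 (adjusted p = 0.0085). Control rats averaged 32.2 at 5j and 80.5 at 18m, and Scd2 rose beyond them by 2.99 (adjusted p = 5.2e-06). In DEN-CA rats it rose by 3.33. The main hepatic desaturase, on the probe set of Scd, moved the other way, by -0.91 ± 0.17 (adjusted p = 0.00079, limma).

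Of 21 tested genes of fatty acid synthesis, 5 rose (Scd2, Acly, Acss2, Fasn and Gpam) and Scd fell (median 0.33). In controls 4 rose and 1 fell. Acly, which supplies cytosolic acetyl-CoA, rose by 0.84 (adjusted p = 0.002, limma), Acss2 by 0.53 (adjusted p = 0.0037) and fatty acid synthase (Fasn) by 0.83 (adjusted p = 0.017). The call of Fasn was lost without rat 4118 of 5j (controls: 0.80, adjusted p = 0.041). With the brightness covariate 3 of the 21 rose, and without the rats that had a TU section 1 did.

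Cholesterol synthesis rose late. Of 19 tested genes 10 rose and 0 fell under CA (median 0.61), against 3 and 1 in controls (median 0.24). In DEN-CA rats, followed to 12m only, 2 rose (median -0.07), where 3.06% of all genes rose. Sqle, squalene epoxidase, had 7.93, 34.3, 41.2 and 80.2 in the 4 rats of 12m and 132, 161, 181, 205 and 278 in the 5 rats of 18m. The 18m rats were above all rats of every earlier time. The step was 1.80 ± 0.38 (adjusted p = 0.024, limma) and the trend 1.56 ± 0.30 (adjusted p = 0.0011). Idi1, an isomerase at the start of isoprenoid building, stepped up by 1.25 (adjusted p = 0.00061) and Msmo1, a sterol demethylase, by 1.03 (adjusted p = 0.02) between the same times. Fdft1, squalene synthase, rose by 0.92 over all times (adjusted p = 0.00079, limma).

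The sterol genes were also high in late controls: Sqle averaged 215 and Idi1 381 in control rats of 18m, against 191 and 296 under CA. A difference of trend from controls was called for 2 of the 19 genes, and for none of Sqle, Idi1, Fdft1 and Msmo1 (adjusted p of 0.40 to 0.84). At 18m 4 of the 5 CA rats had a TU section, and without such rats 1 of the 19 genes was called (median 0.47). With the brightness covariate 6 rose. The part of these rats in the rise was not tested otherwise.

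Phgdh and Asns, of amino acid synthesis, stepped up early. In the list of ATF4 targets and the unfolded protein response 6 of 32 genes rose (Phgdh, Asns, Dnajb9, Atf5, Mthfd2 and Psat1) and Hspa5 fell (median 0.18). In controls 1 rose and 5 fell. The brightness covariate left 3 of the 32 rising, and 1 without the rats that had a TU section. Phgdh, the first enzyme of serine synthesis, had 20.7, 21.1, 70.1, 98.1 and 113 at 5j and 265, 269, 294, 341 and 401 at 1m. This step passed the test (2.05 ± 0.23, adjusted p = 1.2e-06, limma), and from 1m to 18m the trend was 0.17 (adjusted p = 0.69). Asparagine synthetase (Asns) stepped up between the same times by 0.85 (adjusted p = 0.019, limma) and rose by 1.05 over all times. All CA rats were above all controls for Asns at all 6 times. The CA trend did not differ from that of controls at the threshold for Phgdh (0.90 ± 0.47, adjusted p = 0.38) or Asns (adjusted p = 0.26). In the opposite sense Sds, which breaks serine down, went from 1870, 2100, 2150, 2960 and 4150 at 5j to 283, 289, 334, 498 and 793 at 1m (step -2.57 ± 0.38, adjusted p = 0.00013, limma). Its mean stayed between 413 and 453 from then on.

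**Figure D4:**
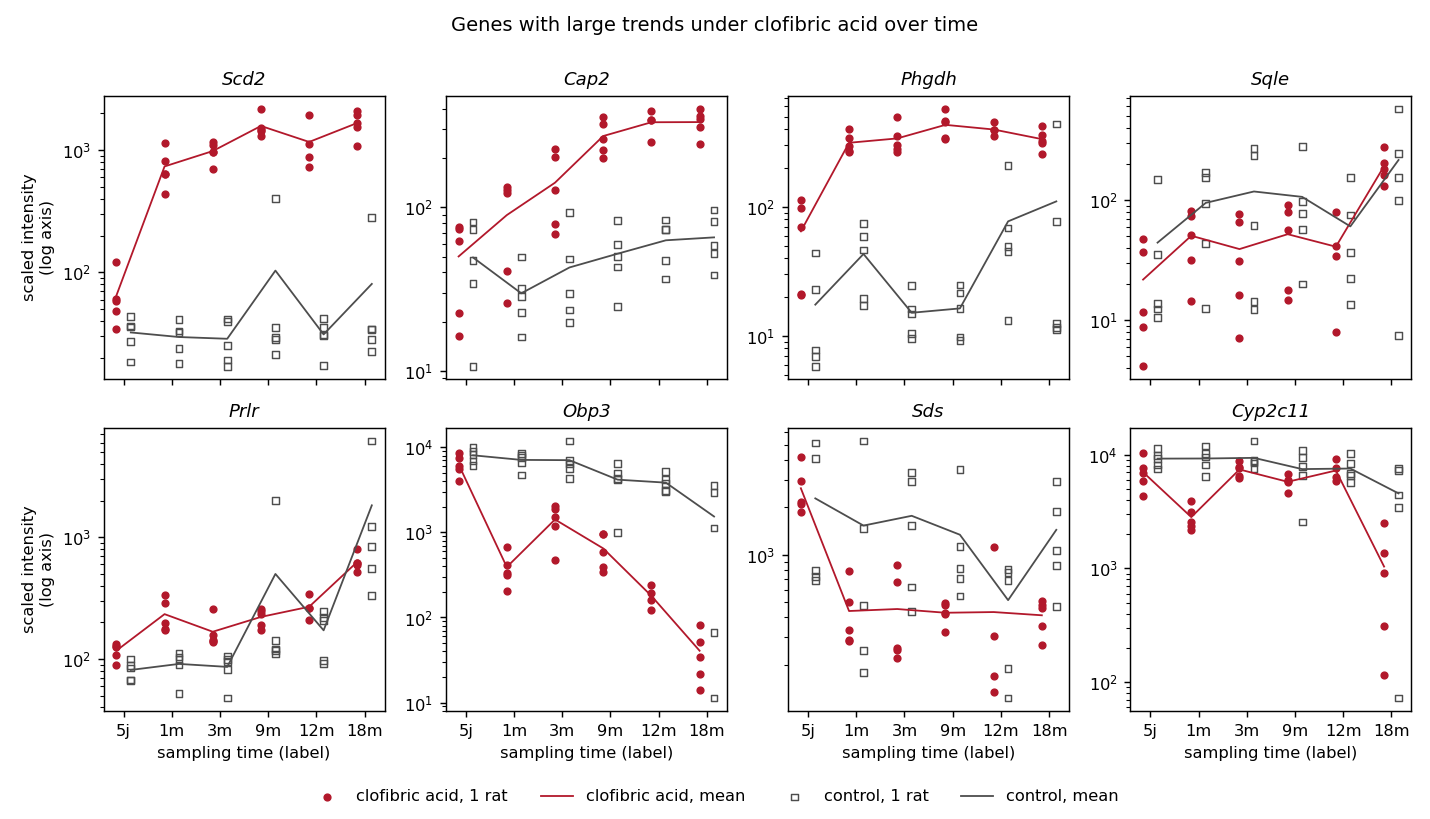
Scaled intensity (vertical axes, log scale, intensity units) of 8 genes with large trends under CA at the 6 sampling times (horizontal axes). Filled circles are single CA rats, open squares single control rats and lines the group means. Scd2, Phgdh and Sds change most between 5j and 1m, the means of Cap2 are higher at each time up to 12m, and Sqle, Prlr and Cyp2c11 change between 12m and 18m.

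Liver genes that depend on growth hormone pulses and sex drifted in both arms. Of 29 tested, 9 fell and 3 rose under CA (median -0.22), and 12 fell and 6 rose in controls (median -0.32). Obp3, a member of the secreted alpha-2u-globulin family of male rat liver, fell most of the genes named. Its CA rats had 4020, 5490, 6090, 7430 and 8460 at 5j and 207, 320, 332, 419 and 682 at 1m. They came back to between 474 and 2040 at 3m, and at 18m had 14.2, 21.7, 34.0, 51.5 and 82.0. The first drop (-3.98), the return (1.73) and the drop after 12m (-1.70) were each called. The trend of Obp3 was -5.31 ± 0.29, a 0.0253-fold change (adjusted p = 1.5e-14, limma). Controls went from 8060 to 1540 (-3.31, adjusted p = 4.8e-06), and the difference between the arms was not called (-2.0 ± 0.74, adjusted p = 0.15). At 4 of the 6 times all CA rats were below all controls. Obp3 and Mup5, which fell by 2.14 (adjusted p = 5.2e-06, limma), belong to a family of near-identical genes, and the split between them is uncertain.

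Cyp2c11, the main cytochrome P450 of adult male rats, was 7000 ± 2200 at 5j, 2820 ± 692 at 1m and 7250 ± 1450 at 12m. At 18m its rats had 116, 312, 913, 1360 and 2480, all below the rats of 12m (step -3.38 ± 0.44, adjusted p = 8.9e-05, limma). Controls fell by 1.56 over the 6 times (adjusted p = 0.023), and no difference was called. Sult1e1, an oestrogen sulfotransferase, dropped at both ends of the series, by 1.24 from 5j to 1m (adjusted p = 2e-05) and by 1.29 from 12m to 18m (adjusted p = 9.7e-05). Prlr, the prolactin receptor, which is high in female liver, rose by 1.71 ± 0.15 (adjusted p = 1.2e-09, limma) and in controls by 2.86. Its rats of 18m had 515, 596, 611, 618 and 804, above all earlier CA rats. Sult2a6, a hydroxysteroid sulfotransferase with close paralogs, rose by 1.84 (controls 2.19), and probasin (Pbsn) fell by 1.38 (controls -2.41). Cyp3a9 fell by 1.79 (controls -1.44), Inmt, a methyltransferase, by 1.45 (controls -2.31), and Cyp2a2 by 0.66 (controls -1.51). For none of these was the trend called different from controls.

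Beyond these lists, Cap2, which binds actin, built up gradually. Its rats had 16.3, 22.7, 62.6, 73.3 and 75.3 at 5j, means of 89.6, 141, 272 and 330 at the next 4 times, and 243, 310, 345, 359 and 398 at 18m. The trend was 2.55 ± 0.25, a 5.86-fold rise (adjusted p = 2.7e-08, limma), and exceeded that of controls by 1.98 (adjusted p = 0.00033). Control rats had between 10.7 and 96.3 throughout. In DEN-CA rats Cap2 rose by 2.29 (adjusted p = 2.9e-10). Cacna2d3, a calcium channel subunit, fell by 1.64 (adjusted p = 6.9e-05, limma), with a difference of -1.52 from controls (adjusted p = 0.0018).

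Egr1, Serpina7, Igfbp1 and Spsb1 were also among the 12 largest rises. Egr1, an immediate-early transcription factor, rose by 1.74 (adjusted p = 0.00031, limma), and 1 rat of 18m, rat 4150, stood apart at 1530. Serpina7, a carrier of thyroid hormone in blood, rose by 1.52 (controls 1.98), Igfbp1, an insulin-repressed binding protein, by 1.5 and Spsb1 by 1.63. Slc2a2, the glucose transporter of hepatocytes, rose by 1.29 (adjusted p = 0.00023, limma) and in controls by 0.61. No difference in trend from controls was called for these 5 (adjusted p of 0.15 to 0.78). All 5 calls were lost without the rats that had a TU section, and Igfbp1 and Serpina7 also with the brightness covariate.

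In comparison with controls, 499 genes rose under CA and 483 of the genes tested under CA rose in controls, and 105 did both (21.0% and 21.7%). Of the falling genes, 316 under CA and 530 in controls, 124 did both (39.2% and 23.4%). A trend beyond that of controls, by the test of the difference, was called for 50 of the rising and 37 of the falling genes. In turn 59 genes that rose in controls and 33 that fell there differed from CA, where the same direction was not called.

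Several of the largest differences were of that last kind, with a called trend in controls that was not called in the same direction under the drug. Cd36, a fatty acid transporter and PPARalpha target, had CA means of 1360 ± 358 at 5j and 1020 ± 266 at 18m (trend -0.45, adjusted p = 0.084, limma). Over the first 5 times it fell by 0.80 (adjusted p = 0.011). In controls it climbed from 99.7 to 1150 (3.18, adjusted p = 2.6e-15), so the ratio of the means went from 13.7 to 0.889 (difference -3.63 ± 0.33, adjusted p = 2.1e-11). Aldh1a1, a retinaldehyde dehydrogenase, did the same (controls 507 to 2380, CA 3290 to 2440, difference -3.27, adjusted p = 7.7e-08). Its own fall under CA (-0.57, adjusted p = 0.049) was lost in 9 alternative analyses and when any of 20 single rats was left out. Pdk4, which restrains pyruvate use, rose in controls by 1.37, and under CA it had -0.49 (adjusted p = 0.13, limma; difference -1.86) and fell over the first 5 times by 0.82 (adjusted p = 0.039). Cyp4a8 rose in controls by 2.26, from 174 to 967, and stayed between 25.2 and 106 in all CA rats (difference -2.64, adjusted p = 2.8e-10). Abhd2 and Fam84b also rose in controls only by the test (differences -1.60 and -1.85).

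In the other direction, Cela1, an elastase, had 757 ± 196 at 5j and 802 ± 203 at 18m under CA and fell in controls from 526 to 64.7 (difference 2.96 ± 0.36, adjusted p = 9.9e-08, limma). From 3m on all CA rats were above all controls. Zfp354a, a zinc-finger protein, fell in controls by 1.57 and had 1.07 ± 0.38 under CA (adjusted p = 0.072, limma; difference 2.64). Cyp7a1, the rate-limiting enzyme of bile acid synthesis, fell in controls by 1.29 and had 0.45 under CA (adjusted p = 0.18, limma; difference 1.74, adjusted p = 0.0015). Alas1, which starts haem synthesis, fell in controls by 1.51 and had 0.38 under CA (difference 1.89). Arrays with the suffix B included 4 of the 5 control arrays of 5j. Without such arrays the differences of Zfp354a, Cyp7a1 and Alas1 were 2.3, 1.08 and 1.77. They were not called there, nor without the rats that had a TU section.

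Cyp1a2, a P450 that metabolises caffeine and aromatic amines, moved in opposite directions in the arms. Its CA rats had 592, 1140, 1200, 1300 and 1670 at 5j and 2130, 2200, 2940, 3160 and 3570 at 18m, without overlap (1.14 ± 0.19, adjusted p = 0.00029, limma). Control means went from 4980 to 2990 (-0.84, adjusted p = 0.00025). The difference was 1.98 ± 0.24 (adjusted p = 7.7e-08), and the ratio of the means went from 0.237 to 0.936. The call under CA, unlike the difference, was lost without the rats that had a TU section and with rat 4137 of 12m included, which had 302. Metallothionein (Mt2A), a metal-binding protein, rose under CA by 1.11 (adjusted p = 0.0026, limma), with a difference of 1.79 from controls. The difference was not called when arrays with the suffix B were left out (1.87), nor without the rats that had a TU section. The rise of Mt2A under CA was also not called without the latter rats. The Mt2A value of rat 4119 at 5j, 5570, lay far above the other 4, which ran from 1370 to 1740.

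**Figure D5:**
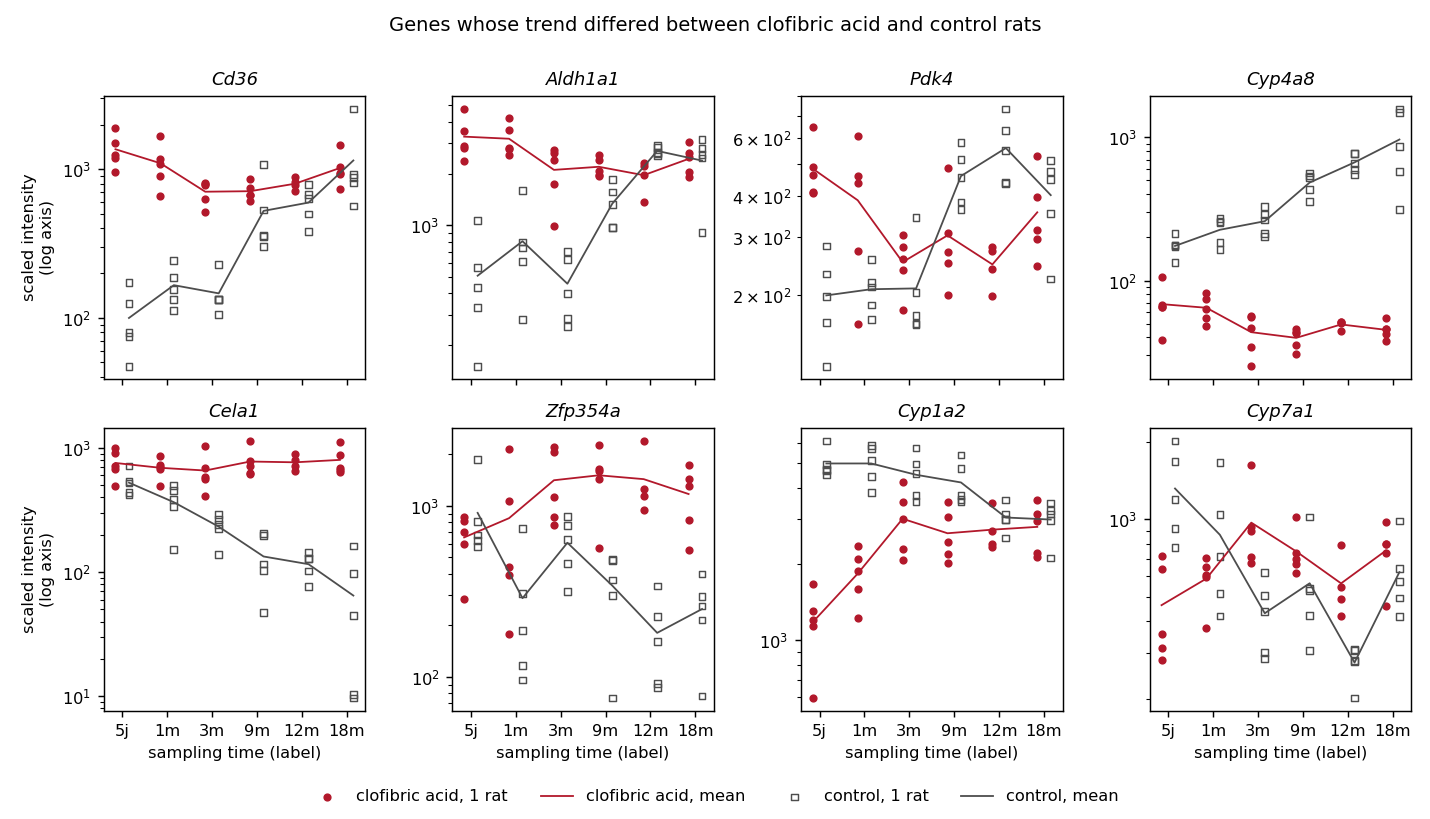
Scaled intensity (vertical axes, log scale, intensity units) of 8 genes whose trend differed between CA and control rats at the 6 sampling times (horizontal axes). Filled circles are single CA rats, open squares single control rats and lines the group means. Cd36, Aldh1a1, Pdk4 and Cyp4a8 rise in controls and Cela1, Zfp354a and Cyp7a1 fall there, while Cyp1a2 rises under CA from 1180 to 2800 and falls in controls from 4980 to 2990.

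Not all changes lay along a line. An F test for any difference among the 6 times called 602 genes (7.37%). Among genes past it whose trend had an unadjusted p above 0.05, the 6 with the smallest p were Ucp2, Hmox1, Ifitm3, Elapor1, Tgm2 and Il33. Hmox1, the inducible haem oxygenase, had 447, 763, 844, 987 and 1070 at 5j and 203, 269, 270, 324 and 377 at 1m (step -1.40 ± 0.18, adjusted p = 1.6e-05, limma), with no overlap. It then rose from 1m to 18m by 0.87 (adjusted p = 0.0021) to a mean of 601 ± 129. Ifitm3, an interferon-induced membrane protein, dropped by 1.1 and rose again from 1m by 1.00 (adjusted p = 0.0019, limma). Il33, an alarmin cytokine, was lowest at 3m (132 ± 52.8) and stepped up to 9m by 0.90 (adjusted p = 0.023). Apoa4, an apolipoprotein of triglyceride transport, was 320 ± 89.1 at 5j, 87.3 ± 22.4 at 1m and 313 ± 186 at 3m, and both steps were called. All CA rats were far below the controls for Apoa4 (67.9 to 620 against 3630 to 8380).

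Between neighbouring times most changes were called from 3m to 9m. From 5j to 1m 32 genes changed (0.392%; 49 probe sets), 10 up (0.122%) and 22 down (0.269%). From 3m to 9m 180 did (2.2%; 275 probe sets), 106 up (1.3%) and 74 down (0.906%). From 1m to 3m there were 4 genes (0.049%; 6 probe sets), 3 up (0.0367%) and 1 down (0.0122%). From 12m to 18m there were 25 (0.306%; 31 probe sets), 17 up (0.208%) and 8 down (0.098%). From 9m to 12m limma called 0 genes, with 841 probe sets at an unadjusted p below 0.05. The 3m to 9m interval is where array brightness differed most between neighbouring times. Its falling genes included abundant secreted proteins such as Alb, Rbp4, Ttr and Hp as well as Fabp1, Eci1, Acaa2 and Ehhadh, named after their values were seen. Single rats weighed heavily. Its 275 probe sets became 940 without rat 4128 of 3m, and 127 to 161 without rat 4129 or 4130 of 3m or rat 4132, 4135 or 4136 of 9m. The 5j to 1m count became 31, 32 and 90 without rats 4122, 4120 and 4118. The 12m to 18m count became 11 to 19 without rat 4138, 4140, 4141, 4143, 4145 or 4150. The 1m to 3m count ran from 0 to 17, with 0, 3, 17, 3 and 1 without rats 4123, 4125, 4127, 4130 and 4131.

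The first interval set apart early shifts from a continued drift. With 5j left out, a trend from 1m to 18m was called for 387 genes (4.74%), 270 rising (3.31%) and 117 falling (1.43%). Of the 499 genes that rose over all 6 times 197 were also called from 1m on (39.5%), and of the 316 that fell 104 were (32.9%). In probe sets the count from 1m was 552, and it was 203 and 305 without rats 4126 and 4124 of 1m and 365 without rat 4139. It was 216, 309 and 292 without rats 4143, 4145 and 4150 of 18m, and 906 without rat 4128 of 3m. Eci1, Ehhadh, Ephx2, Vnn1 and Acot1 were among the genes that still fell after 1m, by 0.82, 0.77, 0.94, 0.65 and 1.54, whereas the trends of Phgdh (0.17), Asns (0.40) and Sds (-0.14) were not called there.

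For abundant plasma proteins the direction turned with the scaling. In the acute phase list 12 of 24 fell and 1 rose in the scaled data (median -0.38), but 7 rose and 1 fell after quantile normalization, and 0 were called with the brightness covariate. Coagulation and complement had 7 falling of 21, and 3 rising and 2 falling after quantile normalization. Apolipoproteins had 4 falling and 1 rising of 15, and 0 and 4 after quantile normalization. Hepatocyte identity genes had 7 falling and 3 rising of 28, and 2 and 5 after it. Alb itself fell by 0.72 (adjusted p = 0.011, limma), had 0.00 after quantile normalization and -0.14 with the brightness covariate. C1s, a complement protease, was an exception in size: it dropped from 2050 ± 912 at 5j to 455 ± 140 at 1m (step -1.99, adjusted p = 3e-05, limma), and its trend over all times differed from that of controls by -1.01 (adjusted p = 0.022). All CA rats were below all controls for C1s at all 6 times.

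Proteasome subunits had 9 falling of 28 and 0 rising (median -0.30), 16 falling after quantile normalization and 4 with the brightness covariate, with 7 falling in controls and 16 in DEN-CA rats. Psma7 fell by 0.71 (adjusted p = 0.0021, limma) and in controls by 0.58. For the counts that follow, 6.11% of all tested genes rose and 3.87% fell under CA. In controls 5.87% rose and 6.31% fell. Respiratory chain subunits had 3 falling of 55, against 15 in controls. The medians of 35 cytosolic ribosomal proteins and 20 cell cycle genes were -0.10 and -0.13. Drug-metabolising P450 genes had 10 falling and 1 rising, Cyp1a2, of 25 (controls 15 and 2), with 6 falling and 3 rising after quantile normalization. Of 35 genes of the urea cycle and amino acid breakdown 6 fell and 1 rose, against 15 and 0 in controls. Tumour-associated genes had 2 rising and 1 falling of 20, against 3 and 1 in controls, which is near the shares of all genes. The 2 that rose under CA were Abcb1a, a drug efflux pump (0.85, adjusted p = 0.0014, limma), and Anxa5, an annexin (0.77, adjusted p = 0.00058). For neither was the trend called different from controls (adjusted p of 0.59 and 0.4, limma). Gstp1, the placental glutathione transferase that marks liver foci, had 0.54 ± 0.18 (adjusted p = 0.054). Its values were 115 to 363 in CA rats and 155 to 743 in controls. The rise of Gstp1 was called in 10 of 18 alternative analyses and not in the other 8. It was called after quantile normalization (0.49, adjusted p = 0.049, limma) and without arrays of the suffix B (0.73, adjusted p = 0.01). With the brightness covariate it was not (0.37, adjusted p = 0.43). Among 19 targets of p53 and the DNA damage response, Cdkn1a, which halts the cell cycle, and Plk2 rose and Apex1, a DNA repair enzyme, fell, while 7 rose in controls. The trend was lower than in controls for 4 of the 19, Apex1 among them (-0.82, adjusted p = 0.0022, limma). The fall of Apex1 under CA (-0.41, adjusted p = 0.027) was lost in 6 alternative analyses, turned upward in unscaled data, and was lost when any of 5 single rats was left out (4118, 4120, 4138, 4143 and 4145).

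Clock genes moved in opposite senses. Of 13 tested, Per1, Bhlhe40 and Usp2 rose and Nr1d1 fell. In controls 2 rose and 0 fell. Bhlhe40 rose by 0.88 under CA and by 1.22 in controls, and no difference was called (adjusted p = 0.7, limma). Per1, which represses the clock, had 20.5, 32.0, 38.3, 77.6 and 89.0 at 5j and 51.9, 99.6, 128, 128 and 179 at 18m, with overlap. Its trend was 1.49 ± 0.26 (adjusted p = 0.00039, limma), above controls by 1.68 (adjusted p = 0.011). Nr1d1, a repressor in the same loop, fell by 0.86 (adjusted p = 0.024, limma), with a difference of -1.46 from controls. Its call was lost without rat 4144 of 18m, and also in unscaled data, with the suffix B as a covariate, without the rats that had a TU section and with the rats labelled 18 added. The rise of Usp2 (0.85, adjusted p = 0.039) was lost in 11 alternative analyses and when any of 11 single rats was left out. The hour of sampling is not given in the sources used here, and its part in these genes was not tested.

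Markers of other cell types shifted mildly, where 6.11% of all tested genes rose and 3.87% fell under CA. Of 15 tested lymphocyte genes, Nkg7 (0.88, adjusted p = 0.0038, limma), Ccl5 (1.00, adjusted p = 0.02) and Prf1 (0.76, adjusted p = 0.031), all of cytotoxic cells, rose, and the summed intensity of 8 T and NK markers had a median of 739 (558 to 839) at 5j and 1070 (627 to 1370) at 18m. From 1m to 12m the medians of that sum were 559, 618, 611 and 651, below that of 5j. Controls had 3 of 15 rising too, and no difference of trend from controls was called in the list. The ratio of the CA mean to the control mean went from 0.572 at 5j to 0.35 at 18m for Nkg7. For Ccl5 it went from 0.553 to 0.346 and for Prf1 from 0.567 to 0.368. The call of Ccl5 was lost without rat 4143 or 4150 of 18m or rat 4118 of 5j, and that of Prf1 without rat 4138, 4143, 4150, 4117 or 4119. Macrophage genes Cd68 (0.55, adjusted p = 0.019), Fcer1g (0.55, adjusted p = 0.017) and Fcgr2b (0.63, adjusted p = 0.024) rose among 15 tested. The sum of the 6 macrophage markers on the array, of 8 listed, was 3970 (2200 to 4940) at 5j and 4530 (4270 to 5150) at 18m. Cd68 was lost without rat 4143, 4144 or 4118 and Fcgr2b without rat 4143, 4117 or 4118. With the brightness covariate, or without the rats that had a TU section, no gene of either list was called by limma. Of 36 genes of interferon response and antigen presentation 3 rose, the chemokines Cxcl9 (0.47) and Cxcl10 (0.48) and Mx2, and 4 fell (RT1-Db1, B2m, RT1-Bb and Cd74). In controls 2 rose and 6 fell. B2m had -0.48 on the probe set used and 0.1 on its other probe set. The trends of B2m and Cd74 were not called different from controls (adjusted p of 0.95 and 0.98, limma). Cxcl9 rose beyond controls by 0.69 (adjusted p = 0.016). The trend calls of both chemokines were lost without the rats that had a TU section, Cxcl9 also with the brightness covariate and Cxcl10 without arrays of the suffix B.

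Of 33 tested stellate cell, fibroblast and matrix genes, 3 collagens fell under CA and 0 rose (median -0.06, against 3.87% of all genes falling), and in controls 6 fell and 1 rose. Col3a1, a fibrillar collagen, had 582, 790, 809, 812 and 848 at 5j and 253, 350, 361, 383 and 408 at 18m, without overlap (-0.91 ± 0.14, adjusted p = 6.9e-05, limma), and fell in controls by 1.12. Col1a1 and Col1a2 fell by 0.40 and 0.53, and Col1a1 lost its call without rat 4150. Both calls ended with the brightness covariate. The sum of 7 stellate and fibroblast markers was 1450 (1230 to 1590) at 5j and 921 (709 to 1130) at 18m. Red cell genes were low at the first time: Hbb, a globin, had 1150, 1330, 1380, 2150 and 2370 at 5j and 3000, 4330, 5040, 6120 and 6190 at 1m (step 1.55 ± 0.23, adjusted p = 0.00014, limma). Alas2, the haem enzyme of red cells, stepped up by 1.39 (adjusted p = 0.0036). Of 14 endothelial genes Kdr, a receptor (0.93, adjusted p = 0.0074, limma), and Fcgr2b rose (median 0.07), and of 6 bile duct cell genes Epcam alone did (0.76, adjusted p = 0.00027; median -0.18). Kdr and Epcam were lost without the rats that had a TU section, and Kdr with the brightness covariate. All CA rats were above all controls for Epcam at all 6 times, from 236 to 568 against 124 to 290. No marker on the array was listed at 0 in all CA rats. Beyond these values, the part of other cell types in the results above was not tested.

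Another 6 untagged CA livers, labelled 18 without a unit, were not part of the fits. Their lowest, median and highest intensities were 1140, 1480 and 1650 for Scd2, 341, 358 and 380 for Cap2, and 923, 1250 and 1490 for Ephx2. Ehhadh had 6880, 8260 and 9080 and Sqle 128, 197 and 318. These ranges overlap those of the 18m rats for all 5 genes. Obp3 had 9.83, 14.5 and 40.2, and Prlr 678, 1120 and 1430. Gstp1 had 407, 464 and 546, above all CA rats of the fits. The section of rat 4137 that the rule left out had 3970 for Scd2, 641 for Ephx2 and 30.3 for Acot1, outside the range of the 4 rats of 12m in each case.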

How the data were processed

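Total RNA of 176 rat liver sections was measured on Affymetrix arrays with 15922 probe sets. The authors deposited intensity values on a linear scale, made with MAS5 per the submitters' processing notes; its settings are not given in the sources used here. Here each array was scaled to a median of 99.35, 25 was added and log2 was taken, which understates folds of dim genes. A fit kept probe sets that 3 or more of its arrays placed above their own 40th percentile. Group means per time were fitted with limma 3.58.1 (R 4.3.3; eBayes with an intensity trend), with 23 residual degrees of freedom for CA, 47 for CA with controls and 20 for DEN-CA. Contrasts were the line over ordered times, its difference between arms, an F test and steps. Tests were two-sided, with Benjamini-Hochberg adjustment over all probe sets of a fit and 0.05 as the threshold. The brightest probe set stood for a gene.

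Genes named were the 12 largest rises and 12 largest falls, the 8 largest differences from controls each way, the 6 smallest F p-values among genes with an unadjusted trend p above 0.05, up to 4 per list, and a panel of marker genes, some of which are not reported here. Genes and lists were chosen with earlier results of these data known. Values of a group are mean ± SD, and every rat is 1 array, so the number of arrays limits precision. On simulated data with 200 changed probe sets of 11351, the CA trend test recovered 38% of changes of 0.5, 90% of 1 and 100% of 1.5 log2, and 6.82% of its calls were false. The simulated noise was independent between probe sets and had no array brightness tied to time. These rates therefore need not hold for the calls in the real data. Alternatives were other offsets, scalings, filters, time spacing, suffixes, array weights and left-out rats, and, chosen after seeing the data, array brightness as a covariate, no dim arrays and no 3m. No array repeated another.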

Additional observations from a re-analysis of the deposited data

Results flagged for a closer look

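Among 564 groups of CA rats at one time, for 94 genes, 31 held a rat far from the others. That is close to the share of about 1 in 20 that chance gives, so the values below are a listing only. Of the fat metabolism genes, Eci1 was high in rat 4130 at 3m (17400), Decr1 in rat 4117 at 5j (10800), Ephx2 in rat 4132 at 9m (1480) and Fgf21 in rat 4120 at 5j (630). Rat 4150 at 18m was high for Slc25a20 (1080), Fabp3 (339) and Egr1 (1530) and low for Elapor1 (58.3). Rat 4118 at 5j was low for Amacr (2970), Acly (469), Col3a1 (582) and Apoa4 (169). Low values were also flagged for Vnn1 in rat 4141 at 12m (884), Cyp4a1 in rat 4122 at 1m (7840), Scd in rat 4140 at 12m (5190) and Cyp4a8 in rat 4138 at 12m (44.3). Hdc was low in rat 4119 at 5j (425) and in rat 4131 at 3m (481), and Elapor1 in the latter too (58.3). Mt2A was high in rat 4119 at 5j (5570) and low in rat 4135 at 9m (1960). Other far values were Mup5 in rat 4121 at 5j (784), Prlr in rat 4130 at 3m (256), Abhd2 in rat 4124 at 1m (660) and Cyp7a1 in rat 4125 at 1m (378). Of cell type genes they were Nkg7 (55.1) and Epcam (487) in rat 4139 at 12m, Alas2 in rat 4132 at 9m (131), Cd68 in rat 4128 at 3m (572), Fcer1g in rat 4138 at 12m (977) and Fcgr2b in rat 4140 at 12m (571).

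For 30 named genes the trend differed between CA and control rats by the test of the difference itself (limma, adjusted p below 0.05). In log2 units, CA less control, it was lower under CA for Cd36 (-3.63), Aldh1a1 (-3.27), Acot1 (-2.90), Cyp4a8 (-2.64), Fabp3 (-2.06), Pdk4 (-1.86), Fam84b (-1.85), Abhd2 (-1.60), Cacna2d3 (-1.52), Nr1d1 (-1.46), Ephx2 (-1.22), Ehhadh (-1.20), C1s (-1.01), Ech1 (-0.90), Cyp4a3 (-0.88), Apex1 (-0.82), Decr1 (-0.68) and Acaa2 (-0.61). It was higher for Scd2 (2.99), Cela1 (2.96), Zfp354a (2.64), Cap2 (1.98), Cyp1a2 (1.98), Alas1 (1.89), Mt2A (1.79), Cyp7a1 (1.74), Per1 (1.68), Usp2 (1.55), Hbb (0.92) and Cxcl9 (0.69). The genes with the 8 largest called differences each way were named for that reason, so the count of 30 follows in part from the choice. Over all genes tested, such a difference was called for 2.25%.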

How the results depend on the processing

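All counts here are probe sets called. For the trend under CA (1139), unscaled intensities gave 6962, the suffix B as a covariate 1917, leaving out rats with a TU section 165, array brightness as a covariate 295 and a 2-fold limit 132. For the difference from controls (337), unscaled values gave 50, quantile normalization 561, array weights 571, only arrays without the suffix B 212, no rats with a TU section 66 and a 2-fold limit 144. Unscaled values put the median gene at 0.67. They gave 10184 for any difference among times, 5207 for 18m against 5j, 5465 for the trend from 1m, 138 for the first 5 times and 190 for DEN-CA, and 16, 10816, 63 and 52 for the steps 5j to 1m, 3m to 9m, 9m to 12m and 12m to 18m. Under them Alb (0.03), Aldh1a1 (0.18), Apex1 (0.28), Cat (0.22), Col1a1 (0.18), Col1a2 (0.03), Cyp2a2 (0.09), Cyp4a1 (0.05), Decr1 (0.03), Psma7 (0.03) and Ucp2 (0.65) turned upward in trend, all at or below that median. Quantile normalization gave 573 for the first 5 times and 83, 28, 157 and 86 for the steps 5j to 1m, 1m to 3m, 3m to 9m and 12m to 18m; 938 of the 1139 trend calls held. Without a filter the steps 1m to 3m and 3m to 9m gave 0 and 182. Arrays without the suffix B gave 1024 from 1m, 30, 477 and 1 for the steps 5j to 1m, 3m to 9m and 9m to 12m, and 198 for DEN-CA. The causes were not tested. Leaving out one rat at a time gave 793 to 1289 for the trend, 559 to 1207 for any difference, 450 to 871 for 18m against 5j (450 without rat 4117, 460 without 4143, 477 without 4145), 203 to 906 from 1m and 200 to 400 for the first 5 times. The 5 steps in order ranged over 31 to 90, 0 to 17, 127 to 940, 0 to 5 and 11 to 46, controls over 1272 to 1769, the difference over 268 to 406 and DEN-CA over 857 to 1420. No paired analysis was possible because the times compared hold different rats. Array number limits the precision, and changes of most genes at once cannot be seen after scaling.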
